A study of Mus musculus with 25 samples.

Results

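The nuclear-encoded subunits of the mitochondrial respiratory chain and ATP synthase were followed in mouse ovarian follicles during culture. Members were the genes on the bead array whose symbol began with Ndufa, Ndufb, Ndufc, Ndufs or Ndufv and a number, with Uqcr, with Cox4 to Cox8 or with Atp5, together with Cyc1 and the Sdh subunits. The rule took 76 of 18138 symbols, with 94 of 25697 probes. They comprised 33 symbols of complex I, 3 of complex II, 7 of complex III, 16 of complex IV and 14 of ATP synthase, also called complex V. These groups follow the start of the symbol, so Ndufa4, whose product is now placed in complex IV, counts under complex I throughout. A further 3 matched by name only. Cox4nb is an older symbol of Emc8, of the endoplasmic reticulum membrane protein complex, and Atp5s and Atp5sl are older symbols of Dmac2l and Dmac2, which are not among the enzyme's structural subunits.

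Follicles came from CD-1 mice, an outbred stock, at 16 days of age. They were secondary follicles of 150 to 180 µm, and each array held RNA of a pool of 20 to 40 of them. Day 0 (n = 5 arrays) was taken before culture; days 2, 4, 5, 6 and 8 (n = 3 arrays each) followed encapsulation in 3% alginate gel with FSH at 10 mIU/ml, insulin at 5 µg/ml and fetuin at 1 mg/ml, the same on every cultured day. A further 5 arrays were labelled murine brain and served as a reference, with no strain or age given.

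The respiratory chain passes electrons from NADH and succinate to oxygen and pumps protons across the inner mitochondrial membrane, and ATP synthase uses the return of those protons to make ATP. Most of its subunits are encoded in the nucleus, a few in mitochondrial DNA. Several subunits of cytochrome c oxidase (complex IV) exist as a widely expressed form and a form found mainly in heart and skeletal muscle. In the ovary, the oocyte depends on oxidative metabolism and receives pyruvate from the granulosa cells around it, which rely more on glycolysis.

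Levels are log2 intensities, so that a difference of 1 is a doubling, and they were compared for a probe with itself between arrays, never between probes. A gene was tested where a probe had a detection p under 0.05 on at least 3 arrays. That kept 71 of the 76 symbols on the 20 follicle arrays and 72 on all 25. Atp5k, which encodes a small subunit of ATP synthase, was detected on no follicle array and on 3 reference arrays. Ndufs1, Uqcrq, Cox7b2 and Cox8c were detected on no array. On every array, between 85.1% and 91.5% of the member probes were detected, against between 41.7% and 51.3% of all probes. A change was called at an adjusted p under 0.05 in limma's moderated test, with Benjamini-Hochberg adjustment over all genes tested. The titles number the day 0 arrays as repeats of a reference, and the protocol speaks of 3 independent experiments per group where day 0 has 5 arrays. The p-values therefore measure the spread between these arrays, which may be technical. With day 0 averaged to 1 sample, no member passed against it on any day or in the F test among the days. On days 2, 4, 5, 6 and 8, 4.66%, 11.0%, 13.1%, 18.1% and 19.8% of all genes did, and 24.9% in the F test. Each such call below therefore rests on day 0 counting as 5 samples.

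The arrays labelled brain went against their label, and they are called the reference arrays here. Of 12 brain markers, 7 were on none of the 5 arrays, among them Gfap, Snap25, Syt1 and Mog. Of 11 measured heart muscle markers, 10 were detected on all 5. The atrial peptide gene Nppa stood at 15.12 ± 0.10 (SD, n = 5) and the cardiac myosin gene Myh6 at 14.86 ± 0.05 (SD, n = 5), and neither was detected on a day 0 array. The summed intensity of the heart muscle markers was 210534 to 218541 on the reference arrays and 670 to 919 at day 0.

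Repeat 1 of day 6 stood apart from the other follicle arrays in these genes. Its members had a median of -1.48 against its day mates, while the median of all genes was 0.00. Counts of members called are given with and without it. The follicle arrays also changed in make-up. The summed intensity of 8 oocyte markers was 51693 to 58580 at day 0 and 11118 to 12280 at day 8, and that of 8 granulosa markers 47071 to 55652 and 87438 to 104168. A sum is led by its brightest genes, and not every granulosa marker rose. Amh was detected on all 5 day 0 arrays and on no day 8 array. Fewer cells of a type and less RNA per cell cannot be told apart in pooled follicles, and the part of this shift in the results below was not tested.

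**Figure D1:**
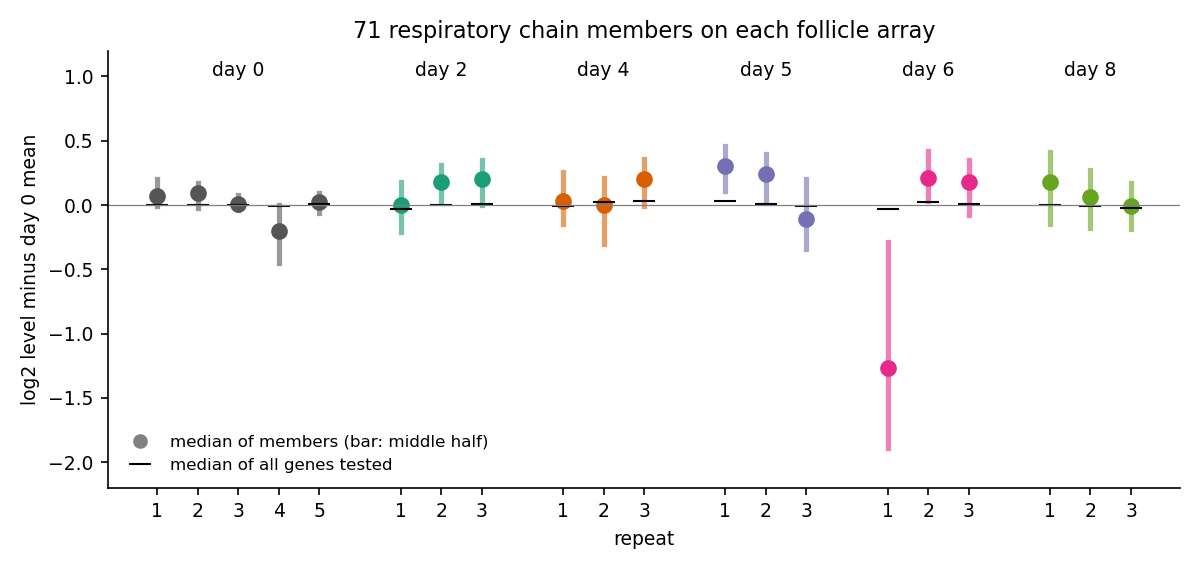
Difference of each member from its day 0 mean (log2) on each follicle array, drawn as the median (point) and the interquartile range (bar) of the 71 tested members beside the median of all 10688 genes. The member median of repeat 1 of day 6 was -1.27, and those of the other arrays lay between -0.20 and 0.30.

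The promoters of 4 complex IV subunits are shown because the results turn on their isoforms: the muscle forms Cox7a1 and Cox8b, and the widely expressed forms Cox7a2 and Cox6a1. RefSeq windows (GRCm38.p6) run from 250 bases before the start of transcription to 50 bases into the gene, 5′ to 3′ on the gene's strand. Capitals mark matches, on either strand, to the NRF1 motif (GCGCA, any base, GCGC), the ETS motif CCGGAAG, the SP1 motif GGGCGG, the muscle E-box CAGCTG and the TATA box TATAAA. The Cox6a1 window (chr5:115348909-115349208, minus strand) holds 2 NRF1, 1 ETS and 2 SP1 matches. The Cox7a2 window (chr9:79759804-79760103, minus strand) holds 1 SP1 match. The Cox8b window (chr7:140900397-140900696, minus strand) holds 2 E-box matches and 1 TATA match. The Cox7a1 window (chr7:30183921-30184220, plus strand) holds no match to these motifs.
Cox6a1: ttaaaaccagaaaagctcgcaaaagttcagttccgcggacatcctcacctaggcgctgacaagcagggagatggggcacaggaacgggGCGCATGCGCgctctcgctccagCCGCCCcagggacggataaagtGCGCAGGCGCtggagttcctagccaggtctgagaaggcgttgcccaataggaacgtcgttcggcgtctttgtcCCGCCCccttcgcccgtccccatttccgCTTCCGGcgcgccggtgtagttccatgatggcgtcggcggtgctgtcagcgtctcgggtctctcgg
Cox7a2: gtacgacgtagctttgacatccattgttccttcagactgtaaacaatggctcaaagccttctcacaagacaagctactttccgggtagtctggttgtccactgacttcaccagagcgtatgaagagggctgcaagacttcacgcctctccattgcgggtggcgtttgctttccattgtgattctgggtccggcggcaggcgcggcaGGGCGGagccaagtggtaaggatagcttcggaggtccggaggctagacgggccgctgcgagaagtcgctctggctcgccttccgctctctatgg
Cox8b: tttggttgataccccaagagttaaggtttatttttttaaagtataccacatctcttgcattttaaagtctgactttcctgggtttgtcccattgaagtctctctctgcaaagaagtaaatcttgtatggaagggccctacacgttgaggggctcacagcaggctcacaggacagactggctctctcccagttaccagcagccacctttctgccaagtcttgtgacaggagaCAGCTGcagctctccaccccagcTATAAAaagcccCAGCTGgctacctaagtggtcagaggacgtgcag
Cox7a1: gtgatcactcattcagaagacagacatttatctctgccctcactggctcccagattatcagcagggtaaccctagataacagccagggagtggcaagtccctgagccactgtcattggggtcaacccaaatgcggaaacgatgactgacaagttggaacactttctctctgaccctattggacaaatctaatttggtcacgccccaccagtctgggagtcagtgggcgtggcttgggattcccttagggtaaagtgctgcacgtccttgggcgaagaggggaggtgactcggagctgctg

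Over the module, 61 of 76 members had a window, 67 windows in all. NRF1, a regulator of nuclear genes for mitochondria, has its motif in 22.4% of them, against 4.6% of all 32851 RefSeq windows. For the YY1 motif AANATGGC the shares were 28.4% and 6.05%, and for the ETS motif 22.4% and 8.86%. The SP1 motif was in 41.8% and 35.7%. The remaining motifs were no more frequent among the members. The E-box was in 7.46% against 16.3%, the MEF2 motif (CTA, any 4 bases, TAG) in 1.49% against 3.69%, and the TATA box in 11.9% against 13.6%. A match describes letters and is not a bound site.

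How the chain's transcripts changed with culture is answered by each day against day 0. Most members were not called. At day 8, 6 of 14 tested subunits of complex IV passed, 1 of 32 in complex I, none of 3 in complex II, none of 6 in complex III and 1 of 13 in ATP synthase. The share in complex IV, 42.9%, was close to the 43.4% called among all genes. The muscle isoform Cox7a1 rose 6.78-fold by day 8, the lung and hypoxia-linked isoform Cox4i2 rose at least 2.08-fold, and the muscle isoform Cox6a2 fell. The counts called were 2 of 71 on day 2, 8 on day 4, 9 on day 5, 13 on day 6 and 10 on day 8. The background over all genes on these days was 25.1%, 33.7%, 35.9%, 42.9% and 43.4% in that order, and the members' shares, 2.82%, 11.3%, 12.7%, 18.3% and 14.1%, lay below it on each day. At day 8, 7 members rose and 3 fell, against 20.6% and 22.8% of all genes. The member medians were 0.15, 0.06, 0.14, -0.23 and 0.08, beside medians of all genes between -0.00 and 0.03. Across the days, 16 members were called at least once against day 0, 12 only upward and 4 only downward, and 55 on no day. Of all genes 61% were called at least once, 29.6% only upward and 29.6% only downward. The moderated F test among the 6 days called 12 of 71 members, where 50% of all genes were called.

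Leaving out repeat 1 of day 6 lowers the spread that all days share. The counts were then 4 on day 2, 13 on day 4, 17 on day 5, 13 on day 6 and 16 on day 8, with backgrounds of 30.2%, 38.2%, 40.5%, 39.4% and 47.7%. At day 8, 11 rose and 5 fell, against 22.9% and 24.8% of all genes. The F test called 24 members, including all 12 called with every array, against 54.5% of all genes. Leaving out other arrays mattered as well. The day 2 count was 1 without repeat 1 or repeat 3 of day 2, where 20% and 19.2% of all genes were called. The day 4 count was 2 without its repeat 2, 3 without its repeat 1 and 5 without repeat 1 of day 0, with 26.5%, 28.2% and 30.4% of all genes called. The day 6 count was 24 without its repeat 2, 21 without its repeat 3, 6 without repeat 1 of day 0 and 7 without repeat 3 of day 0. The share of all genes was 42.7%, 40.5%, 38.9% and 39.5% in those fits, so the member counts moved more than it did.

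**Figure D2:**
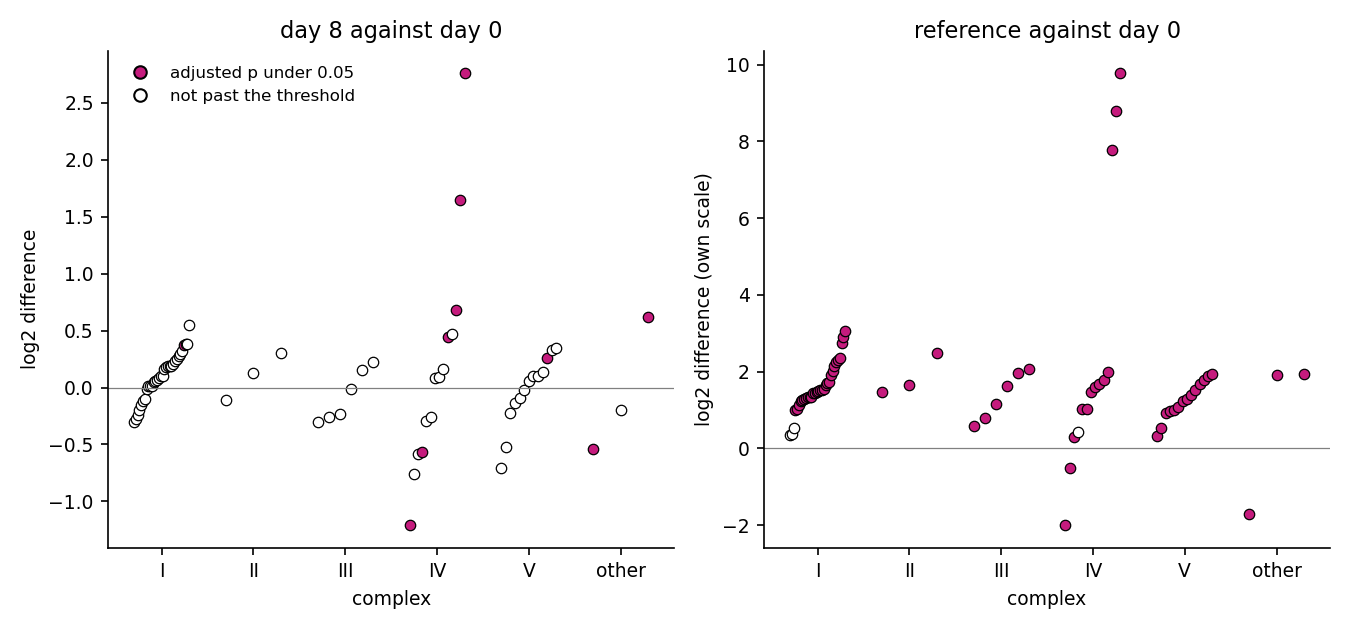
Fitted log2 difference of every tested member from day 0, by complex, at day 8 (left) and on the reference arrays (right, with its own scale); points are members in order of their difference, "other" holds the matches by name only, and filled points passed an adjusted p under 0.05. At day 8, 10 of 71 members passed, 6 of them in complex IV, and on the reference arrays 68 of 72 did.

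Cox7a1, the heart and skeletal muscle form of subunit VIIa, gave the widest change. Its day 0 arrays read 7.53, 7.56, 7.26, 6.55 and 7.59, and its day 8 arrays 10.31, 10.15 and 9.72. All 3 day 8 arrays lay above all 5 of day 0, and the difference of 2.76 (SE 0.60) passed with an adjusted p of 0.000942. Its levels in between were 7.72, 8.84 and 8.58 on day 2, 7.81, 7.41 and 8.90 on day 4, and 9.38, 9.09 and 8.28 on day 5. Day 4 overlapped day 0, and neither day 2 nor day 4 was called, whereas day 5 was higher by 1.62 (SE 0.60, adjusted p 0.0428 in limma), a call that ended in 13 of 30 alternatives. Day 6 read 6.19, 10.10 and 9.63, with repeat 1 below every day 0 array. Without that repeat, day 2 (1.08, SE 0.34, adjusted p 0.0205 in limma) and day 6 (2.57, SE 0.39, adjusted p 3.3e-05 in limma) were called too. Cox7a2, the widely expressed form of the same subunit, was not called at day 8 (-0.58, SE 0.47, adjusted p 0.352 in limma).

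Cox4i2 is the form of subunit IV known from lung and induced by low oxygen in other cells. It was detected on no day 0 array and on all 3 day 8 arrays. The day 0 arrays read 4.85, 4.85, 4.65, 4.61 and 5.04, and the day 8 arrays 5.88, 7.27 and 6.2. The groups did not overlap, and the rise was at least 2.08-fold (adjusted p 0.00152 in limma). On day 6 it was detected on 2 of 3 arrays, at least 1.36-fold higher than day 0, a call that ended in 11 of 29 alternatives. Its widely expressed counterpart Cox4i1 differed by 0.09 (SE 0.16) at day 8, with an adjusted p of 0.698 in limma.

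Cox8b, a muscle form of subunit VIII, sat at the edge of detection. No array of days 0, 2 or 4 detected it, and 2 of 3 did at day 8. Day 0 read 4.82, 5.01, 4.76, 4.89 and 4.69 and day 8 read 5.81, 5.32 and 5.40, with no overlap. The called rise was at least 1.08-fold (adjusted p 0.00742 in limma), so its size is poorly bounded.

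Not every muscle form rose. Cox6a2, the muscle form of subunit VIa, read 6.98, 6.67, 6.40, 5.92 and 6.49 at day 0. At day 5 it read 5.12, 5.31 and 5.08 and was not above background on any array. At day 8 it read 5.62, 4.97 and 5.26, with 1 of 3 arrays detected and every array below every day 0 array. The day 8 fall was called at -1.21 (SE 0.27, adjusted p 0.00124 in limma), and the day 5 level was at least 1.94-fold lower than day 0. Its widely expressed counterpart Cox6a1 read 12.70 to 12.99 at day 0 and 13.19, 13.55 and 13.32 at day 8. These groups did not overlap, and the difference of 0.47 (SE 0.23) was not called (adjusted p 0.112). Without repeat 1 of day 6 it was called, with the same difference, an SE of 0.11 and an adjusted p of 0.0012. Cox6b2, the testis form of subunit VIb, differed by -0.76 at day 8 (adjusted p 0.0743 in limma, and 0.0243 without that repeat). The widely expressed Cox6b1 differed by -0.26 (SE 0.38). Cox8a and the proton ring gene Atp5g1 were not analysed here.

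Of Cox5a, Cox5b and Cox6c, subunits of complex IV with no isoform pair here, only Cox5a was called at day 8. Its product binds a thyroid hormone metabolite and sits on the matrix side of the enzyme. It read 12.74, 12.74, 12.79, 12.80 and 12.70 at day 0, 12.71, 12.88 and 12.86 at day 2, and 12.10, 12.31 and 12.17 at day 8. The day 8 arrays lay below all arrays of both earlier days, and the fall from day 0 was 0.57, a difference of -0.57 (SE 0.18, adjusted p 0.0141). Cox7a2l, which joins complexes III and IV in supercomplexes, rose. It read 10.94, 10.96, 10.93, 11.19 and 10.81 at day 0 and 11.63, 11.73 and 11.55 at day 5, the day with its highest mean, with a difference of 0.67 (SE 0.12, adjusted p 0.000232). At day 8 it read 11.41, 11.52 and 11.27, still above day 0 by 0.44 (SE 0.12, adjusted p 0.00706), with no overlap.

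**Figure D3:**
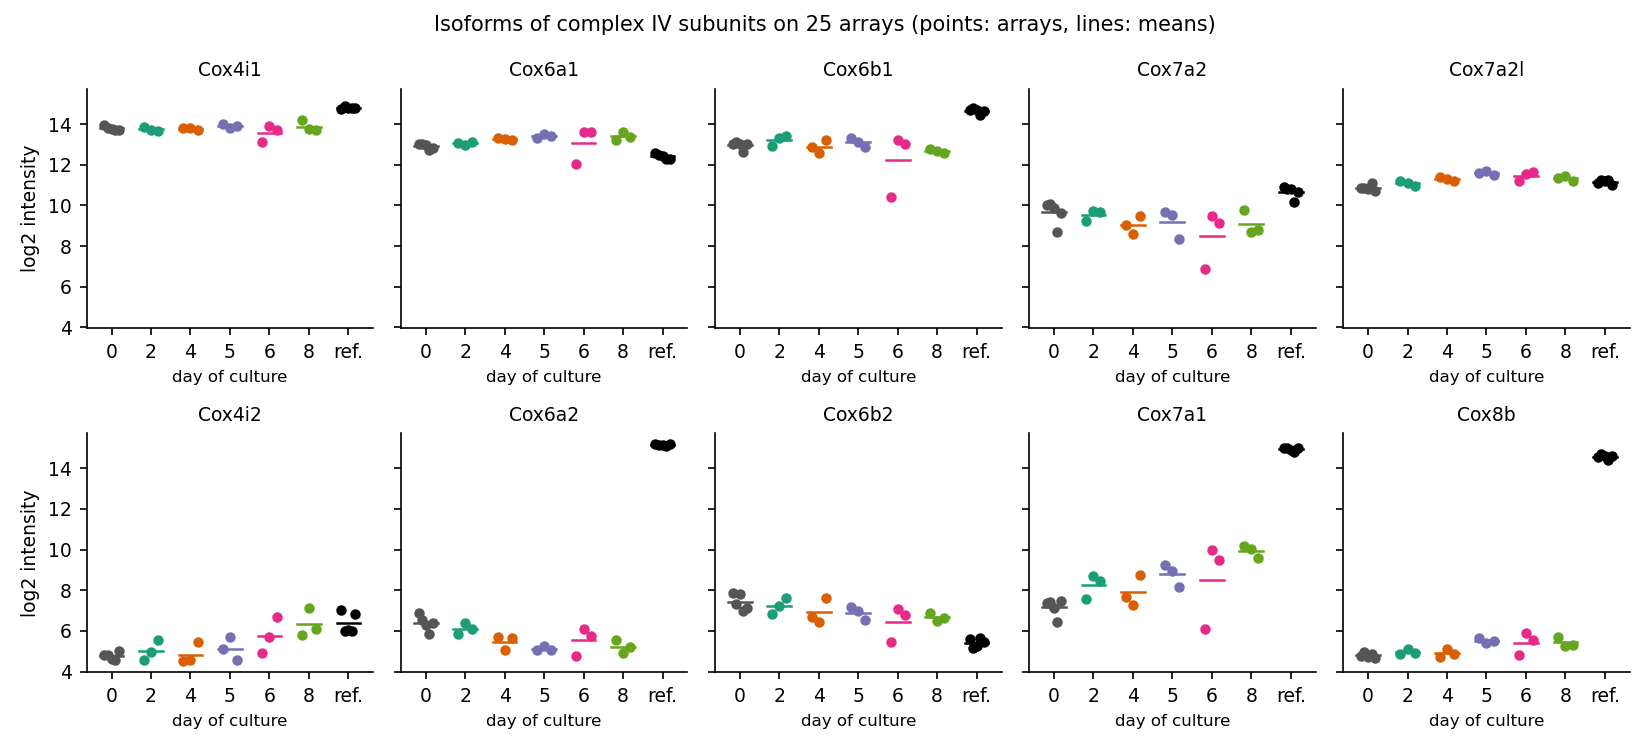
Level (log2 intensity, all 25 arrays normalized together) of complex IV isoforms by day of culture and on the reference arrays (ref.), 1 panel per gene, with a point per array and a short line at each group's mean. Levels can be compared within a gene only; on this scale Cox7a1 stood at 7.17 ± 0.43 at day 0 and 14.93 ± 0.09 on the reference arrays (SD, n = 5 each).

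In complex I, which oxidises NADH, every called change was a rise of under 1. Ndufv1, which binds NADH and flavin, was called on days 4, 5 and 6. It read 12.35, 12.27, 12.27, 12.41 and 12.25 at day 0 and 12.72, 12.62 and 12.94 at day 5, a rise of 0.45 with no overlap. Its day 4 call ended in 16 of 30 alternatives and its day 6 call in 9 of 30. Ndufa10, an accessory subunit, was higher by 0.55 on day 4 (SE 0.15, adjusted p 0.00807) and stood at 0.05 on day 8 (adjusted p 0.833). Ndufs3, of the peripheral arm, was the one complex I subunit called at day 8, where it read 11.87, 11.98 and 11.91 against 11.49 to 11.74 at day 0. It rose by 0.37 (SE 0.13, adjusted p 0.0312). Ndufs4, an accessory subunit needed for complex I stability, passed at day 8 only without repeat 1 of day 6 (0.55, SE 0.16, adjusted p 0.0075 in limma), and was singled out for that. Its other probes past the filter differed by 0.81, 0.61 and 0.11 at day 8.

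Complex II, which oxidises succinate, had no call on any day: at day 8 Sdhb differed by 0.30, Sdhc by -0.11 and Sdhd by 0.13. In complex III, which passes electrons from ubiquinol to cytochrome c, the core protein gene Uqcrc1 was called on day 6 alone (0.45). That call ended without repeat 1, where the difference was 0.19 with an adjusted p of 0.386 in limma. Cyc1, cytochrome c1, differed among the 6 days (F test, adjusted p 0.0416 in limma). It stood at 10.58 ± 0.04 at day 0 (SD, n = 5), 10.78 ± 0.05 at day 4 and 10.32 ± 0.25 at day 8 (SD, n = 3 each), and no single day was called against day 0.

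In ATP synthase, the proton ring subunit gene Atp5g3 rose slightly. It read 14.66, 14.59, 14.57, 14.57 and 14.71 at day 0 and 14.83, 14.95 and 14.87 at day 8. The groups did not overlap, and the difference of 0.26 (SE 0.09) had an adjusted p of 0.0286. Atp5f1 (now Atp5pb), of the peripheral stalk, was higher by 0.49 on day 4, 0.59 on day 5 and 0.47 on day 6, and the day 8 difference of 0.35 was not called (adjusted p 0.0806). Its day 6 call ended without repeat 1 of day 6, where the difference was 0.45 (adjusted p 0.0556 in limma). The catalytic beta subunit gene Atp5b differed by -0.02 (SE 0.13) at day 8. Among the name matches, Atp5s was called on all 5 cultured days, reading 6.54 to 6.89 at day 0 and 7.17, 7.52 and 7.36 at day 8, a rise of 0.62 (SE 0.14, adjusted p 0.0016 in limma). Cox4nb fell by 0.54 at day 8 (SE 0.20, adjusted p 0.0351).

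The size of these changes depended on scaling. At day 8 the Cox7a1 rise of 2.76 was 1.56 in the log2 values of the authors' deposited table, the Cox4i2 rise of 1.65 was 0.33 there, and the Cox6a2 difference of -1.21 was -0.24. The Cox8b and Atp5s differences were 0.11 and 0.21. The direction was the same in each. The day 8 calls of Cox7a1, Cox4i2, Cox6a2, Cox7a2l and Atp5s held when any 1 array was left out. Those of Cox5a and Cox8b ended without repeat 1 of day 8, that of Ndufs3 without any 1 array of day 8 or any of repeats 1, 2, 3 and 5 of day 0, that of Atp5g3 without repeat 2 or 3 of day 8 or repeat 2, 3 or 4 of day 0, and that of Cox4nb without repeat 1 or 3 of day 8 or repeat 3, 4 or 5 of day 0.

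Between cultured days few members moved. Day 8 against day 2 called 3 of 71, where 22.4% of all genes were called: Cox4i2 rose by 1.38 (SE 0.43, adjusted p 0.0247), while Cox6a2 (-0.94, adjusted p 0.0324) and Cox5a (-0.63, adjusted p 0.0282) fell. The count was 0 without repeat 2 of day 2 (17.4% of all genes), and 1 without repeat 3 of day 2 (17.2%). It was also 1 without repeat 2 of day 8 or without repeat 3 of day 8, where the share of all genes is not given here. With day 0 as 1 sample it was 1, against 17.9% of all genes. Without day 6 repeat 1 it was 7, where 26.9% of all genes were called, then including a Cox7a1 rise of 1.68. In limma no member was called in any of the 4 steps from one cultured day to the next, where 10.2% of all genes were called in at least 1. At an unadjusted p under 0.05 there were 4 members from day 2 to 4, 1 from day 4 to 5, 1 from day 5 to 6 and 4 from day 6 to 8. Of genes without a change, a share of about 0.05 passes that threshold, so these are not calls. Without day 6 repeat 1, and also without day 4 repeat 3, 1 member was called, where 12.7% and 10.8% of all genes were called in at least 1 step.

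Repeat 1 of day 6 had lower levels of most members than the other arrays of its day. Of 71 members, 60 (84.5%) were lowest on it, against 41.4% of all genes, and 45 (63.4%) were lower by at least 1, against 7.94% of all genes. The differences from its day mates were -1.84 in complex I, -1.42 in complex IV, -1.47 in ATP synthase, -0.41 in complex II and -0.26 in complex III, each a median over the tested members. All 14 complex IV members were lowest on it.

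Within the module the shift was uneven. Cox7a1 read 6.19 on repeat 1 and 10.10 and 9.63 on the others. Ndufb7, a small accessory subunit of complex I, read 6.06 against 9.16 and 8.88, and Atp5l, a small membrane subunit of ATP synthase, 9.39 against 12.15 and 12.17. On each of these, repeat 1 was far below both mates. These were singled out after their values were seen, as the widest gap in each of complexes IV, I and V. Other subunits went the other way. Uqcrc1 read 12.44 against 11.53 and 11.77, and Atp5b 14.85 against 14.46 and 14.31. A list of 15 subunits held catalytic or core subunits of complexes I, III and V, with Ndufv1, Uqcrc1, Cyc1 and Atp5b among them, and also Cox5a and Cox5b. The last are supernumerary subunits, since the catalytic core of complex IV is encoded in mitochondrial DNA. The list had a median of -0.24 on this array, with 8 of 15 lowest, and the other 56 members a median of -1.78, with 52 lowest. With Cox5a and Cox5b moved to the others, an alternative chosen after seeing the data, the median of the remaining 13 was 0.15, with 6 lowest, and that of the 58 others -1.74, with 54 lowest. The sign of the list's median thus turned on that choice.

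Other gene groups moved on the same array. The mitochondrial ribosomal proteins had a median of -0.96 (71 genes) and the cytosolic ribosomal proteins of -0.82 (61 genes) against its day mates. It had 51.3% of probes detected, the highest share of any follicle array, a mean correlation of 0.951 with its day mates where those had 0.970 and 0.972, and the lowest array weight, 0.127, the next being 0.422. The summed intensity of the oocyte markers was 5634 to 12725 on day 6. Their part in the low member levels was not tested. The gap between the medians of these 15 subunits and the other members was 1.55 on this array, and 0.50, 0.42, 0.31 and 0.27 on repeat 4 of day 0, repeat 2 of day 4, repeat 3 of day 5 and repeat 1 of day 2. It was -0.78 and -0.46 on repeats 2 and 3 of day 6, whose day mates include repeat 1. On the remaining follicle arrays it lay between -0.32 and 0.18.

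The day 6 result depends on this array. With it, 9 members rose and 4 fell against day 0, where 21.0% and 21.9% of all genes did, and 51 of 71 differences were below 0. Without it, 13 rose and none fell, 19 were below 0, and 4 calls were shared by both fits, while 19.0% of all genes rose and 20.4% fell. The 4 falls (Cox6b2, Cox6a2, Cox5a and Cox4nb) had differences of -0.48, -0.45, -0.28 and -0.28 without it, with adjusted p from 0.0736 to 0.23 in limma. Cox6a1 became called at 0.67 (SE 0.12, adjusted p 0.000214 in limma), and the member median went from -0.23 to 0.18. Among all genes, the spread within day 6 was an SD of 0.28 (median), and among members 0.86, while on the other days the members had 0.17 to 0.21.

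**Figure D4:**
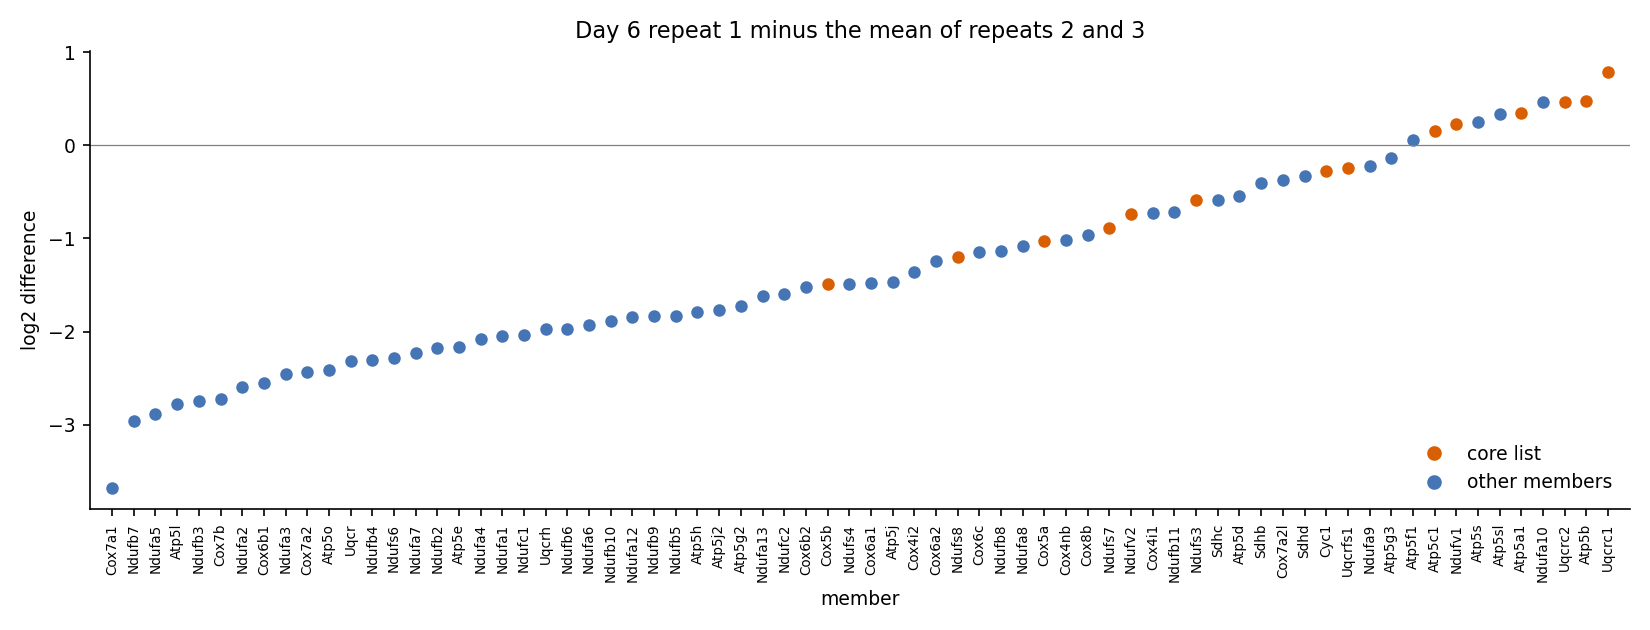
Difference of repeat 1 of day 6 from the mean of its 2 day mates for 70 of the 71 tested members (log2), sorted and coloured by the list of catalytic or core subunits with Cox5a and Cox5b (14 shown) and the remaining 56. The lowest was Cox7a1 at -3.68 and the highest Uqcrc1 at 0.79.

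The reference arrays had higher levels of most members than day 0 follicles. For this comparison all 25 arrays were normalized together. Of 72 members tested, 65 were higher on the reference arrays than at day 0 and 3 lower, while 34.2% of all genes were called higher and 41.3% lower. The 65 include Atp5k, which was detected on no follicle array and entered the test through 3 reference arrays alone. The member median was 1.47, or 2.77-fold, beside -0.09 for all genes, and 57 members were higher by at least 1. Without repeat 1 of day 6, 72 were called, through the spread that all groups share. The share of all genes is not given here for that fit or for a difference of at least 1. With day 0 and the reference each averaged to 1 sample, 35 were called, where 44.7% of all genes were. Tissue and source cannot be told apart from the group here.

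The widest differences were the muscle isoforms of complex IV. Cox6a2 read 15.19, 15.16, 15.14, 15.09 and 15.19 on the reference arrays and 6.86, 6.54, 6.28, 5.83 and 6.37 at day 0. The groups were far apart, by 439-fold (8.78, SE 0.20, adjusted p 9.44e-22 in limma). Cox7a1 read 15.00, 14.98, 14.92, 14.78 and 14.98 against 7.40, 7.42, 7.12, 6.43 and 7.46, a 218-fold difference (7.77, SE 0.47, adjusted p 2.11e-13 in limma). Cox8b, not above background at day 0, read 14.57, 14.69, 14.59, 14.41 and 14.63 on the reference arrays, at least 609-fold higher (adjusted p 1.55e-25 in limma). In the authors' deposited table the log2 differences of Cox6a2, Cox7a1 and Cox8b were 5.86, 5.45 and 5.77, so the folds are smaller there. The heart muscle markers given above moved with these isoforms.

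Every complex had a median above 0. The medians were 1.48 in complex I (29 of 32 called), 1.66 in complex II (3 of 3), 1.39 in complex III (6 of 6), 1.54 in complex IV (11 of 14 higher, 2 lower) and 1.25 in ATP synthase (14 of 14). The 14 of ATP synthase include Atp5k, which passed the filter only through the reference arrays, so its call is no independent support. In complex I the accessory subunits Ndufb9 (3.06, SE 0.32), Ndufb7 (2.91, SE 0.41) and Ndufb10 (2.74, SE 0.29) led. Sdhb, the iron-sulphur subunit of complex II, was higher by 2.49 and Cyc1 by 2.07. The differences of ATP synthase subunits were of unlike size. In its catalytic head, Atp5a1 (alpha) was higher by 1.67, Atp5c1 (gamma) by 1.07 and Atp5b (beta) by 0.52, the last not called in the authors' deposited table (0.05). Of the proton ring genes, Atp5g2 was higher by 1.28 and Atp5g3 by 0.32, the latter with the opposite sign, -0.10, in the authors' deposited table. At day 0, Atp5b stood at 14.53 and Atp5g3 at 14.64, near the upper end of the levels given here. Atp5a1 stood at 10.47 and Atp5g2 at 10.18. Whether a ceiling of the scale limited the small differences was not tested. Cox6c (0.44), Ndufa7 (0.53), Ndufc2 (0.36) and Ndufs4 (0.37) were not called.

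The 3 lower members were Cox6a1, Cox6b2 and Cox4nb. Cox6a1, the widely expressed partner of Cox6a2, read 12.56, 12.47, 12.43, 12.28 and 12.29 on the reference arrays and 13.02, 13.00, 12.97, 12.70 and 12.84 at day 0. The groups did not overlap, and it was lower by 0.50, a difference of -0.50 (SE 0.19, adjusted p 0.0231). Cox6b2 was not above background on any reference array, at least 3.27-fold lower than day 0. Cox4nb differed by -1.72 (SE 0.16, adjusted p 5.56e-10 in limma), and by -0.95 in the authors' deposited table. By contrast, the widely expressed Cox4i1 was higher by 1.02, and so was Cox7a2.

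Other mitochondrial gene groups are given beside the module. Of 14 tested genes of fatty acid oxidation, 7 rose and none fell at day 8, with a median of 0.52 and a background of 43.4% of all genes called in either direction. They included Acaa2 (1.14), of the last step of the cycle, and Acadm (0.93), the medium-chain acyl-CoA dehydrogenase. Of 71 mitochondrial ribosomal proteins, 1 rose and 16 fell, with a median of -0.21. Without repeat 1 of day 6, 2 rose and 25 fell, where 47.7% of all genes were called. Of 33 assembly factors of the complexes, 4 rose and 4 fell (median 0.06). Of 17 citrate cycle genes, none rose and 1 fell (median -0.05).

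Among 14 regulators of mitochondrial biogenesis at day 8, 2 rose and 5 fell (median -0.17), a share of 50% called that is near the 43.4% of all genes. Esrra, an orphan nuclear receptor that drives respiratory genes, rose by 0.77, while Tfb1m (-1.12), a mitochondrial rRNA methyltransferase, and Gabpb1 (-1.03), a subunit of the ETS factor NRF2, fell. Of 14 electron and adenine nucleotide carriers and enzymes of ubiquinone synthesis, 2 rose, among them Coq9 (0.75), and Pdss1 fell (-1.23).

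Against day 0, 75.5% of all genes were called on the reference arrays, 34.2% higher and 41.3% lower. On these arrays, 14 of 14 fatty acid oxidation genes were higher than at day 0 (median 2.31), with muscle Cpt1b at 7.56. Of 17 citrate cycle genes, 16 were higher and 1 lower (median 1.81), and of 33 assembly factors 30 were higher (median 1.04). The mitochondrial ribosomal proteins had 32 higher and 9 lower of 71 (median 0.25). Ppargc1a, the coactivator of mitochondrial biogenesis, differed by 5.07. It did not pass the filter on the follicle arrays and was tested only because the reference arrays were added. Its follicle signal was thus mostly not above background, and the size of its difference is poorly bounded.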

How the data were processed

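Total RNA of 25 samples was measured on Illumina mouse bead arrays, 1 array each. The table of signals was deposited without normalization. Per the file headers, each array had 4 measures per probe: a mean intensity, its bead standard error, a detection p-value and the number of beads (another unit). Per array, the deposited intensity had a median of 92.4 to 168 from typically 38 to 40 beads, with a relative standard error of 3.71% to 5.19%. The authors' deposited log2 values covered 23286 probes with array medians from 7.84 to 7.89, and all 25 columns matched their own array best. How those log2 values, the detection p-values or the intensities were made is not given in the sources used here. A further 50 per-sample columns were not used. The number of arrays limits precision.

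Signals were background corrected on the detection p, quantile normalized and taken to log2 by limma's neqc (limma 3.58.1 under R 4.3.3; offset 16): on the 20 follicle arrays (14490 probes and 10688 genes kept), and on all 25 for the reference comparison (15291 and 11258). Probes needed a detection p under 0.05 on at least 3 arrays, and the brightest probe stood for a gene. Of 12 members with over 1 probe past this filter, Cox6b1 alone had such probes of opposite sign at day 8. Linear models with 1 mean per group (lmFit, eBayes) covered all groups, with Benjamini-Hochberg adjustment. A fold against a group not above background is a lower bound, against the lowest detected signal of each array. Fits were tested on simulated data. File symbols were updated by the RefSeq gene table, with 14307 of 18138 current and 2906 updated.

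Members, lists and tests were chosen with earlier results of these data known. Named were the 6 widest called rises and falls at day 2, at day 8 (against day 0 and day 2) and on the reference arrays, 3 each way otherwise, the isoform pairs, the Sdh subunits and the catalytic or core subunits, 1 of which counts as a member in every total but is not reported here. Alternatives changed the scaling, the filter, the probe rule, array weights, the repeat number as a block, day 0 as 1 sample and each array left out. Slide positions were not given in the sources used here.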

Additional observations from a re-analysis of the deposited data

Results flagged for a closer look

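A value was picked out where 1 of 5 arrays of day 0 or of the reference lay apart from the other 4 by more than 0.71 of the group's range. Of 78 groups tested 12 met this, and chance gives about 1 in 20. Of the 12, 8 were repeat 4 of day 0. There, the median level of the members was 11.63 against 11.71 to 11.73 on the other day 0 arrays. Cox5b stood at 13.09 (others 13.43 to 13.47), Cox6b1 at 12.65 (12.97 to 13.08), Ndufb10 at 9.22 (9.95 to 10.18) and Ndufs7 at 11.32 (11.63 to 11.73), all low. Atp5c1 at 13.03 (12.59 to 12.72), Ndufa10 at 11.90 (11.72 to 11.77) and Ndufs3 at 11.74 (11.49 to 11.55) were high on the same array. Sdhc was high on repeat 5 of day 0, at 11.92 (11.63 to 11.69).

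On the reference arrays, Ndufa10 was high on repeat 3, at 13.29 (13.12 to 13.15). Ndufb7 was low on repeat 4, at 11.07 (11.39 to 11.52). Sdhb was low on repeat 5, at 12.82 (12.97 to 13.04). The causes were not tested.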

How the results depend on the processing

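With array weights, which give repeat 1 of day 6 little weight, more members were called: 12 on day 2, 15 on day 4, 18 on day 5 and 20 on day 8 against day 0, 12 for day 8 against day 2, 6 in the steps between cultured days and 27 among the 6 days. In that order, 44.9%, 45.2%, 45.6%, 54.9%, 36.3%, 25% and 70.1% of all genes were called with array weights. With day 0 as 1 sample, which leaves fewer samples, 0 were called on days 2, 4, 5, 6 and 8, 1 for day 8 against day 2 and 0 among the 6 days. With day 0 and the reference as 1 sample each, 35 were called between them. Without a filter on dim probes, day 8 against day 2 gave 1. Leaving out 1 array at a time gave 1 to 4 members on day 2, 2 to 13 on day 4, 7 to 17 on day 5, 6 to 24 on day 6, 7 to 16 on day 8, 0 to 7 for day 8 against day 2, 0 to 1 in the steps, 9 to 24 among the 6 days and 67 to 72 on the reference arrays. With the repeat number as a replicate block, 1 member was called on day 2, 12 on day 6 (5 up and 7 down), 9 on day 8, 8 among the 6 days and 68 on the reference arrays, where 20.1%, 39.4%, 38.4%, 43.1% and 75.9% of all genes were called. Repeat numbers did not pair the samples: over 45 same-numbered pairs, correlations of deviations from group means ran from -0.423 to 0.559, and 15 were over 0.1. At day 8, without background correction, 7 rose and 5 fell. For day 8 against day 2, 2 rose and 1 fell without background correction. The share of all genes is not given here for the fits without background correction or without the filter. It is also not set beside the ranges over left-out arrays. Those counts show how the calls moved with the processing, and not how members stood against all genes.

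Of 79 called changes of named members, 5 were not called in the authors' values and 1 reversed, Atp5g3 on the reference arrays at -0.10. Sizes were over 1.5 times smaller for 32 of them in the authors' values and for 20 without background correction. Of 328 uncalled values of named members, 39 were called with array weights. The causes were not tested. Signals near background limit the sizes given for Cox4i2, Cox8b, Cox6a2 and Cox6b2.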

Other observations

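Fatty acid oxidation genes had no called fall against day 0 on any cultured day. Of 14 tested, 4 rose on day 2, 6 on day 4, 6 on day 5, 8 on day 6 and 7 on day 8, with medians of 0.24, 0.38, 0.43, 0.58 and 0.52. The shares called, 28.6%, 42.9%, 42.9%, 57.1% and 50%, stand beside 25.1%, 33.7%, 35.9%, 42.9% and 43.4% of all genes called in either direction. The day 8 rises included Echs1 (1.07), the enoyl-CoA hydratase, and Cpt2 (0.96), the inner carnitine palmitoyltransferase. Mitochondrial ribosomal proteins had 1 called rise and 2 falls of 71 on day 2, and 1 rise and 19 falls on day 6, with medians of 0.06 and -0.37, where 25.1% and 42.9% of all genes were called. Without repeat 1 of day 6, 5 rose and 7 fell, with a median of -0.02, where 39.4% of all genes were called. Among the biogenesis regulators on the reference arrays, 6 of 16 were higher than at day 0 and 4 lower, with Ppargc1b at 4.26 and Esrra at 3.69. Of all genes, 34.2% were higher and 41.3% lower. The 16 include regulators that passed the filter only with the reference arrays added.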
